A study of Mus musculus with 16 samples.

Results

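The colony-stimulating factor genes Csf1, Csf2 and Csf3 and the genes of their receptors, Csf1r, Csf2ra, Csf2rb, Csf2rb2 and Csf3r, were followed across 4 groups of cultured mouse macrophages. These 8 genes were taken by symbol, through the GENCODE M21 annotation, from the 54838 gene identifiers in the count files. The cells were bone marrow-derived macrophages of the genotype B6.129P2-Apoetm1Unc/J, a line without functional apolipoprotein E (strain label C57BL/6J), a genotype that all 4 groups share. The groups, with 4 RNA-seq libraries each, were TMP195+TNFα, TPCA-1+TNFα, TNFα and DMSO. TNFα was given at 50 ng/ml for 24 h. TMP195 (5 µM), an inhibitor of class IIa histone deacetylases, or TPCA-1 (500 nM), an inhibitor of the IkB kinase IKK2, was added 1 h before TNFα. The labels do not say whether the cells given TNFα alone also received DMSO, nor whether replicates came from separate animals. Precursors had been grown for 7 days in 15% L929-cell-conditioned medium, which supplies CSF1 protein, and then kept for 24 h without it, so every group had been exposed to added CSF1 and then deprived of it.

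Colony-stimulating factors are secreted proteins that keep myeloid cells alive and make them divide and mature. CSF1 (M-CSF) acts through the receptor tyrosine kinase encoded by Csf1r, on which macrophages depend. GM-CSF, the product of Csf2, binds an alpha chain (Csf2ra) paired with the common beta chain (Csf2rb), while Csf2rb2 encodes a second, mouse-specific beta chain known to pair with the IL-3 receptor alpha chain. G-CSF, the product of Csf3, binds the receptor encoded by Csf3r, best known from neutrophils. NF-kB is a textbook activator of the Csf2 and Csf3 genes.

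Promoter sequence is shown for 4 members whose start lies in the RefSeq table (GRCm38.p6) and which had enough reads to test. They are not the set of genes that moved, since Csf2ra, printed here, passed no test. Of the 8 members, 5 had an entry in that table, and Csf1r, Csf2rb and Csf3 had none. Each run reads 5′ to 3′ on the gene's own strand, ends just before the annotated start of the gene, and has motif matches in capitals.
Csf1, chr3:107760470-107760719, minus strand: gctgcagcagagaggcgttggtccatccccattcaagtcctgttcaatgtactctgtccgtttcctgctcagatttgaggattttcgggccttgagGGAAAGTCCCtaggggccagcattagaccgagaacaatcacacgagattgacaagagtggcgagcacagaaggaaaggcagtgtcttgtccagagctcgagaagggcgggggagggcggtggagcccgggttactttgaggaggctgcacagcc
Csf2rb2, chr15:78305722-78305971, minus strand: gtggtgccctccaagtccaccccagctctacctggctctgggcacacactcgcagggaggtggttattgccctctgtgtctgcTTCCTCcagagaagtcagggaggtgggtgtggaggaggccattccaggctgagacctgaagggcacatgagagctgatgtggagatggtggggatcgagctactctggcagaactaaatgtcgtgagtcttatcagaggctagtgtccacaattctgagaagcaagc
Csf2ra, chr19:61228430-61228668, minus strand: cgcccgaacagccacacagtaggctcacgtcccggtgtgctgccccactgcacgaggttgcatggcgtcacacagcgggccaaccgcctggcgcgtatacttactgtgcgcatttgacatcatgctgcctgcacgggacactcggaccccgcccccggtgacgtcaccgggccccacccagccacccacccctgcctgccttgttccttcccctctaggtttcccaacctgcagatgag
Csf3r, chr4:126024409-126024549, plus strand: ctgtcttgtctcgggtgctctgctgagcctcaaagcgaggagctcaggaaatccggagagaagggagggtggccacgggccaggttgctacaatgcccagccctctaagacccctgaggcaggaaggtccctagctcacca
The motifs searched on both strands of the 250 bases before each RefSeq start were the kappaB consensus of NF-kB, the CK-1 core GAGATTCC, the AP-1 site TGANTCA and the PU.1 core GAGGAA, none of which overlapped another in these windows. Csf1 held 1 kappaB match, on the reverse strand, at positions -154 to -145 from the start, against a share of 3.9% among all 32851 windows of the table. Csf2rb2 held 1 PU.1 core (reverse strand, -167 to -162), a motif present in 23.3% of all windows. Csf2ra (-14 to -9 and -8 to -3) and Csf3r (-86 to -81) also held PU.1 cores. These lie in bases that GENCODE places inside the gene and that are not printed, except that the first 3 bases of the Csf2ra core at -14 end its printed run, in lower case. The CK-1 core is in 0.755% and the AP-1 site in 6.75% of all windows, and neither was in the windows of these 4 genes. The window of Csf2, searched as well but not printed, held none of the motifs searched, the kappaB consensus included. A match is a run of letters and no evidence of binding.

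Libraries held 7489066 to 31596572 counted reads. The shallowest, TPCA-1+TNFα 2, had an unmapped share of 44.0%, and that share lay between 4.0% and 7.11% elsewhere. Apoe had 1 to 11 reads per library. All 10 macrophage markers checked, among them Lyz2 and Adgre1, averaged above 1 CPM (counts scaled to library size) in every group. The summed level of that list was 13097 to 17792 CPM in TMP195+TNFα, 14210.3 to 21663 in TPCA-1+TNFα, 18197 to 26292 in TNFα and 18594 to 28638 in DMSO. In bulk RNA, fewer cells of a type and less RNA per cell cannot be told apart.

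The receptors far outweighed the ligands. In reads per kilobase of exon, scaled to library size (RPKM), a scale that allows genes to be compared, the level of Csf1r was 195 ± 41.9 in TMP195+TNFα, 74.97 ± 24.5 in TPCA-1+TNFα, 158 ± 23.3 in TNFα and 101 ± 15.8 in DMSO (SD, n = 4 each). Csf2ra came next in every group, at 48.3 ± 14.0, 41.0 ± 10.98, 42.3 ± 8.99 and 37.9 ± 8.95 per kilobase in the same order of groups. Its range overlapped that of Csf1r in TPCA-1+TNFα and in no other group. Csf3r, Csf2rb and Csf2rb2 followed, with group means between 6.67 and 24.6 per kilobase. Among them, Csf3r did not overlap the beta chain gene ranked next to it in TNFα, and Csf2rb2 lay above Csf2rb without overlap in DMSO, while the other neighbours overlapped. Csf1 was lower in every group, from 0.458 ± 0.166 in TPCA-1+TNFα to 3.27 ± 0.726 in TMP195+TNFα, and did not overlap any receptor gene. Csf3 reached 0.549 ± 0.176 per kilobase in TNFα, and Csf2 was at or near 0 throughout. With the longest transcript as the length, Csf2rb ranked above Csf2rb2 in TMP195+TNFα and above Csf3r and Csf2rb2 in TPCA-1+TNFα. The separations in TNFα and DMSO also depended on the length. With the longest transcript, Csf3r overlapped Csf2rb in TNFα (means 22.5 and 21.4 per kilobase). Csf2rb2 then overlapped Csf2rb in DMSO (means 9.96 and 9.90 per kilobase).

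**Figure D1:**
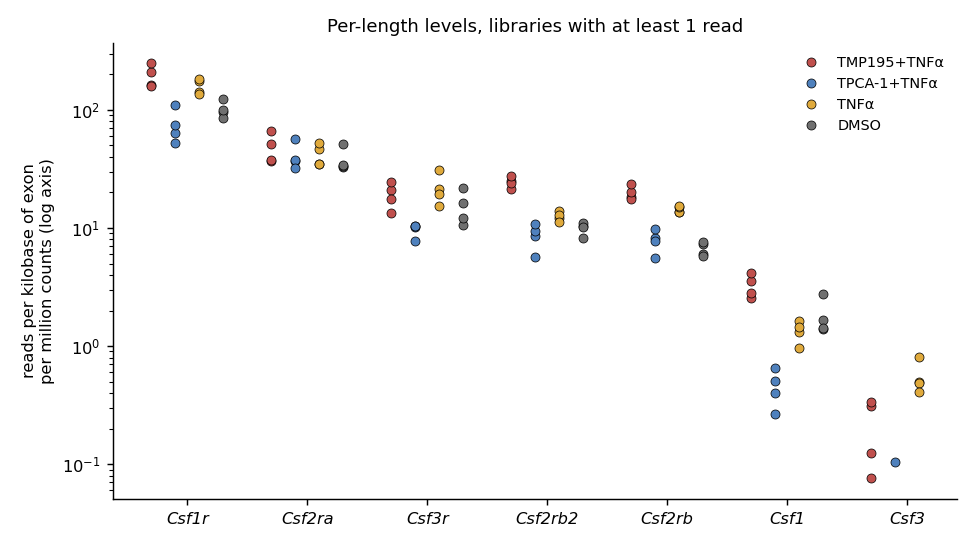
RPKM (log axis) of 7 members in each library, 1 point per library and coloured by group, for libraries with at least 1 read; Csf2 is left out. Csf1r was the highest gene and Csf1 and Csf3 the lowest in every group, with Csf1r at 74.97 to 195 and Csf1 at 0.458 to 3.27 as group means.

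Of the 8 members, 7 passed the filter on low counts and Csf2 did not. Csf3 passed only through the TNFα libraries, where it is highest, so it is described apart and the counts that follow cover the other 6 genes (Csf1 and the 5 receptor genes). Against DMSO, TNFα raised 2 of these 6, Csf1r and Csf2rb, where 10.9% of all 12612 tested genes rose and 23.4% changed. In 3 of 6, these and Csf2rb2, the libraries of the 2 groups did not overlap, as in 27.0% of all genes. Their median log2 change was 0.49, against 0.00177 over all tested genes. With TMP195 before TNFα, 2 of 6 were higher than with TNFα alone, Csf1 and Csf2rb2, where 2.95% of all genes were higher and 5.95% changed. The median of the 6 was 0.33, against 0.015 over all genes. With TPCA-1 before TNFα, 5 of 6 were lower than with TNFα alone and Csf2ra did not pass, where 9.72% of all genes were lower, 9.67% were higher and 19.4% changed. The same 5 did not overlap between the groups, as for 18.1% of all genes. The median of the 6 was -1.0, against 0.022 over all genes. A gene is called at an adjusted p below 0.05 (edgeR quasi-likelihood test on all 16 libraries, Benjamini-Hochberg over 12612 genes), and each change is given on the log2 scale with its SE. The inhibitor contrasts share the 4 TNFα libraries, which are also those set against DMSO. The model behind these counts does not pair libraries by replicate number. With replicates as a block, Csf3r was also called in TNFα against DMSO (0.59 ± 0.15, edgeR adjusted p = 0.00672). The calls of the 6 genes in the inhibitor contrasts against TNFα stayed the same with the block. For TPCA-1 the block is a weak check, because not all of its libraries paired with TNFα by number. Deviations from the group means correlated at -0.11 between the TPCA-1+TNFα and TNFα libraries of number 2.

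**Figure D2:**
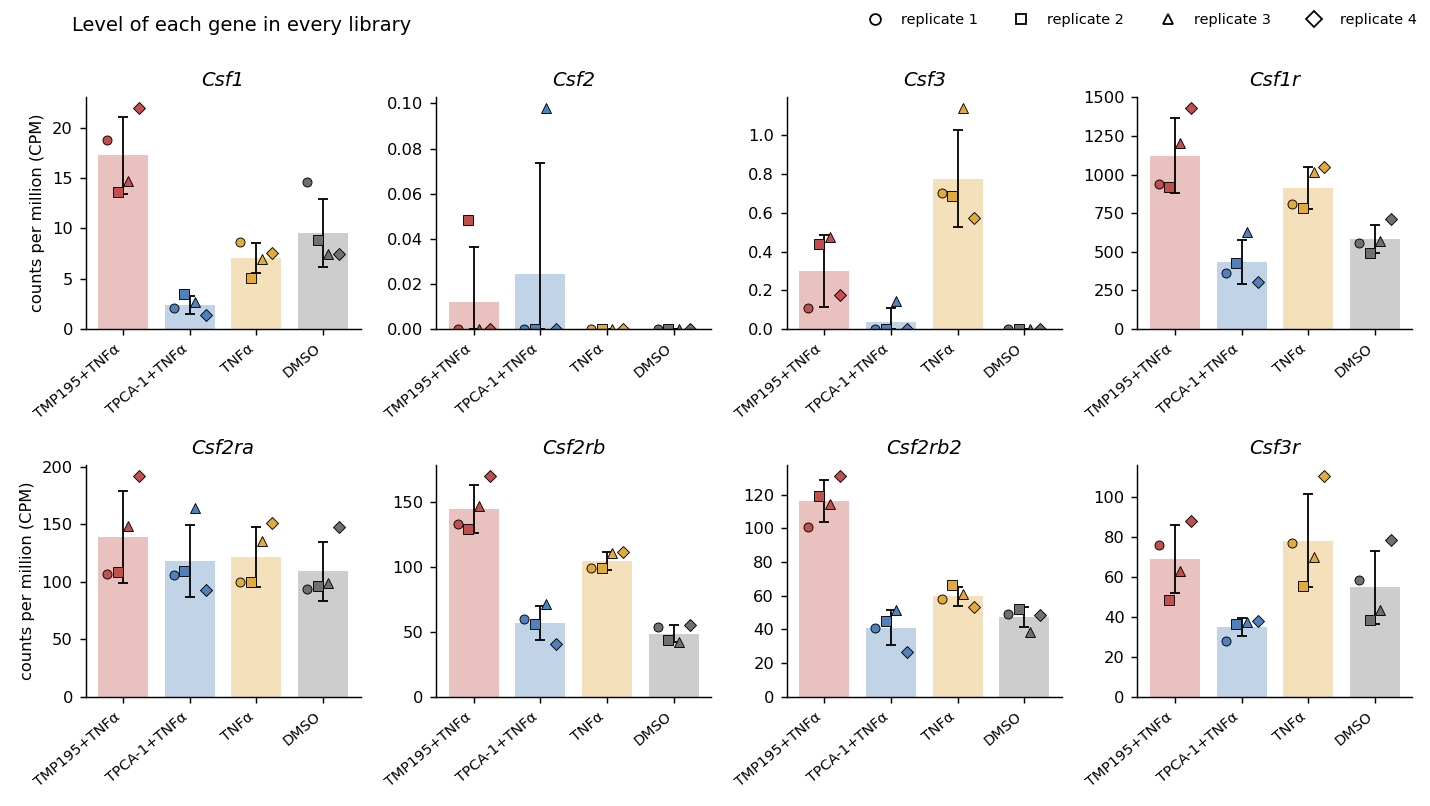
CPM of each of the 8 members (linear axes from 0) in every library, with the symbol giving the replicate number, bars the mean and whiskers the SD over 4 libraries, drawn down to 0 at most. Csf1 was lowest in the 4 TPCA-1+TNFα libraries (1.41 to 3.47 CPM), Csf3 was highest in TNFα (0.573 to 1.14 CPM), and Csf2ra overlapped in all 4 groups.

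Csf1 (ENSMUSG00000014599, GRCm38 chromosome 3, 107741048 to 107760469), the ligand of the main macrophage growth factor receptor, moved in opposite directions with the inhibitors. In order of replicate number it had 18.8, 13.6, 14.7 and 22.0 CPM in TMP195+TNFα, 2.10, 3.47, 2.69 and 1.41 CPM in TPCA-1+TNFα, 8.67, 5.12, 6.99 and 7.59 CPM in TNFα, and 14.6, 8.81, 7.42 and 7.502 CPM in DMSO. The TMP195+TNFα libraries all lay above the TNFα libraries and the TPCA-1+TNFα libraries all below them, while TNFα and DMSO overlapped. Csf1 averaged 17.3 ± 3.83 CPM with TMP195 against 7.09 ± 1.49 CPM with TNFα alone (SD, n = 4 each), a log2 change of 1.23 ± 0.26 (edgeR adjusted p = 0.00849). It averaged 2.42 ± 0.875 CPM with TPCA-1, a change of -1.64 ± 0.29 against TNFα alone (edgeR adjusted p = 0.00067). TNFα itself gave -0.36 ± 0.26 against DMSO (edgeR adjusted p = 0.367), with a 95% interval from -0.91 to 0.18. Cells given TPCA-1+TNFα were also below DMSO, at -2.0 ± 0.29 (edgeR adjusted p = 5.12e-05), where 15.5% of all tested genes were lower. Cells given TMP195+TNFα stood above DMSO by 0.87 ± 0.25 (edgeR adjusted p = 0.0164), where 13.6% of all genes were higher, although DMSO 1 lay among the TMP195+TNFα libraries. That call ended without TMP195+TNFα 4, DMSO 3 or DMSO 4 (highest adjusted p = 0.0609).

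Csf3 (ENSMUSG00000038067, chromosome 11, 98701263 to 98703629), which encodes G-CSF, was a low transcript found mainly after TNFα. Read counts in order of replicate number were 2, 9, 9 and 4 in TMP195+TNFα, 0, 0, 3 and 0 in TPCA-1+TNFα, 13, 14, 36 and 12 in TNFα, and 0 in all 4 DMSO libraries. Every TNFα library was above every library of the other groups, also in CPM (0.573 to 1.14 CPM in TNFα, against at most 0.476 CPM in the other groups). The 75 reads of the TNFα group against none in DMSO made Csf3 at least 21.6-fold higher, with a floor of 3 counts over the DMSO group. TPCA-1+TNFα had 3 reads against 75 in TNFα, a ratio of 0.0527 with an exact 95% interval from 0.0106 to 0.16 that covers counting error only. TMP195+TNFα had 24 reads, a ratio of 0.361 to TNFα with an exact 95% interval from 0.218 to 0.578, again for counting error only. TMP195+TNFα was at least 7.81-fold higher than DMSO by the same floor. No p-value is given for Csf3, because it entered the test only through the TNFα libraries.

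Csf2 (ENSMUSG00000018916, chromosome 11, 54247271 to 54249667), which encodes GM-CSF, had 1 read in TMP195+TNFα 2, 2 reads in TPCA-1+TNFα 3 and none in the other 14 libraries. It could not be tested. A count of 0 allows up to 0.0949 to 0.401 CPM, depending on the depth of the library. Stromal and endothelial cells are known makers of CSF1 and G-CSF, and their 8 markers summed to 3.98 to 6.36 CPM in TMP195+TNFα, 15.3 to 39.5 CPM in TPCA-1+TNFα, 3.77 to 7.48 CPM in TNFα and 7.48 to 10.8 CPM in DMSO. Nearly all of that was Pecam1, the only marker above 1 CPM in any group, and Col3a1 was at 0 in all groups. The part of these cells in the values of Csf1 and Csf3 was not tested.

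**Figure D3:**
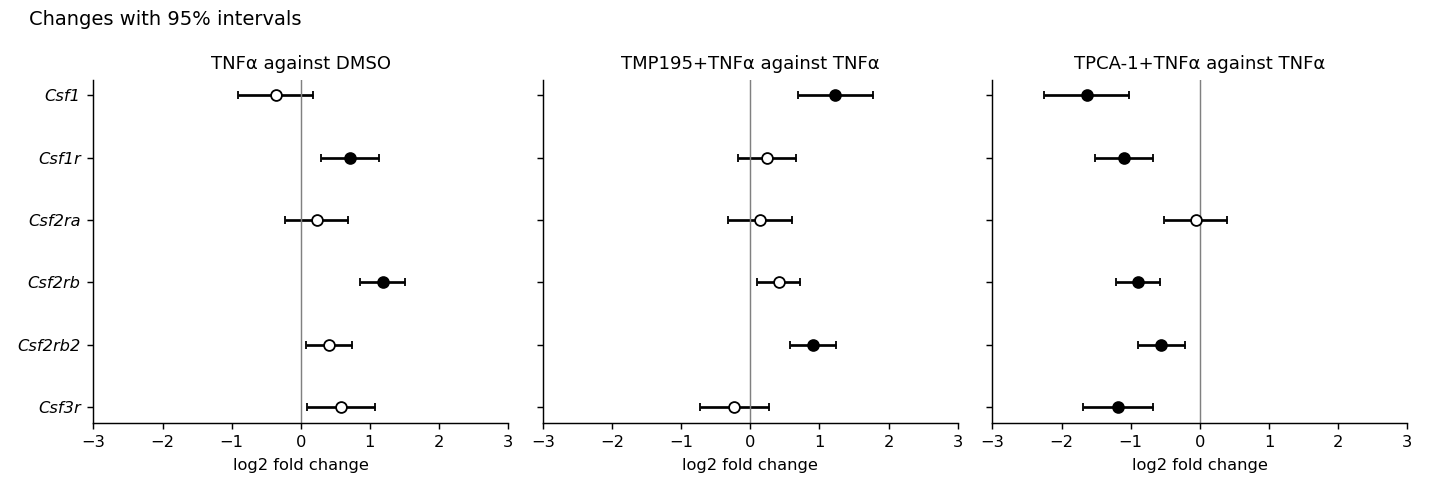
Log2 fold changes of 6 members with 95% intervals in TNFα against DMSO, TMP195+TNFα against TNFα and TPCA-1+TNFα against TNFα, with filled points at an adjusted p below 0.05. Csf1 stood at 1.23 with TMP195 and -1.64 with TPCA-1, and Csf2ra had open points in all 3 panels; Csf2 and Csf3 are left out.

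Csf1r (ENSMUSG00000024621, chromosome 18, 61100598 to 61132149), the CSF1 receptor kinase, was higher after TNFα and lower with TPCA-1. It had 939, 921, 1203 and 1430.3 CPM in TMP195+TNFα, 365, 431, 630.4 and 306 CPM in TPCA-1+TNFα, 812, 786, 1014 and 1047 CPM in TNFα, and 558, 493, 573 and 709.6 CPM in DMSO. All TNFα libraries lay above all DMSO and all TPCA-1+TNFα libraries, whereas TMP195+TNFα overlapped TNFα. TNFα averaged 915 ± 135 CPM and DMSO 583 ± 91.1 CPM (SD, n = 4 each), a change of 0.72 ± 0.20 (edgeR adjusted p = 0.0136). TPCA-1 brought it to 433 ± 141 CPM, -1.10 ± 0.20 against TNFα alone (edgeR adjusted p = 0.000896). With TMP195 it averaged 1123 ± 242 CPM, 0.24 ± 0.20 against TNFα alone (edgeR adjusted p = 0.613), with an interval from -0.18 to 0.66, and was higher in 4 of 4 same-number pairs. TMP195+TNFα was above DMSO by 0.96 ± 0.20 (edgeR adjusted p = 0.00141), and TPCA-1+TNFα stood at -0.38 ± 0.20 against DMSO (edgeR adjusted p = 0.157). The last of these was called without TPCA-1+TNFα 3 (-0.62, edgeR adjusted p = 0.0149).

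Csf2ra (ENSMUSG00000059326, chromosome 19, 61223957 to 61228429), the GM-CSF-binding alpha chain, passed no test. Its libraries ranged from 106 to 192 CPM in TMP195+TNFα, 92.4 to 164 CPM in TPCA-1+TNFα, 99.9 to 151 CPM in TNFα and 93.5 to 147 CPM in DMSO, so all groups overlapped. The changes were 0.23 ± 0.22 for TNFα against DMSO (edgeR adjusted p = 0.525), 0.14 ± 0.22 for TMP195+TNFα against TNFα (edgeR adjusted p = 0.84) and -0.06 ± 0.22 for TPCA-1+TNFα against TNFα (edgeR adjusted p = 0.864). Their 95% intervals ran from -0.23 to 0.69, from -0.32 to 0.60 and from -0.52 to 0.40. Csf2ra was nevertheless higher in the TNFα than in the DMSO library of the same number in 4 of 4 pairs, and higher in TMP195+TNFα than in TNFα in 4 of 4. With replicates as a block these changes were 0.22 ± 0.16 (edgeR adjusted p = 0.335) and 0.13 ± 0.16 (edgeR adjusted p = 0.699).

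The beta chain genes moved more than the alpha chain gene. Csf2rb (ENSMUSG00000071713, chromosome 15, 78325752 to 78353847), the signalling chain shared by the GM-CSF, IL-3 and IL-5 receptors, had 133, 129, 147 and 170.4 CPM in TMP195+TNFα, 59.7, 56.2, 71.4 and 40.3 CPM in TPCA-1+TNFα, 99.0, 99.1, 111 and 112 CPM in TNFα, and 53.5, 43.4, 42.2 and 55.0 CPM in DMSO. The TMP195+TNFα libraries were highest, the TNFα libraries came next without overlap, and TPCA-1+TNFα overlapped DMSO. TNFα averaged 105 ± 6.96 CPM against 48.5 ± 6.62 CPM in DMSO (SD, n = 4 each), a change of 1.18 ± 0.15 (edgeR adjusted p = 1.62e-05). TPCA-1+TNFα averaged 56.9 ± 12.8 CPM, a change of -0.90 ± 0.15 against TNFα (edgeR adjusted p = 0.00041). TMP195+TNFα averaged 145 ± 18.6 CPM, and its change of 0.41 ± 0.15 against TNFα did not pass (edgeR adjusted p = 0.12), although the 2 groups did not overlap, as in 15.0% of all tested genes.

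Csf2rb2 (ENSMUSG00000071714, chromosome 15, 78282507 to 78305721), the IL-3-linked beta chain gene, lies 20030 bases from Csf2rb on the opposite strand. It had 101, 119, 114 and 131 CPM in TMP195+TNFα, 40.9, 45.1, 51.7 and 26.8 CPM in TPCA-1+TNFα, 58.2, 66.6, 60.7 and 53.2 CPM in TNFα, and 49.4, 52.0, 38.7 and 48.7 CPM in DMSO. TMP195+TNFα stood clear of the other groups, and TPCA-1+TNFα overlapped DMSO but not TNFα. TMP195+TNFα averaged 117 ± 12.5 CPM against 59.7 ± 5.55 CPM in TNFα (SD, n = 4 each), a change of 0.91 ± 0.16 (edgeR adjusted p = 0.00261). TPCA-1+TNFα averaged 41.1 ± 10.5 CPM, -0.56 ± 0.16 against TNFα (edgeR adjusted p = 0.0203), a call that ended without TNFα 2 (adjusted p = 0.0591) and in a model of the 2 groups alone (adjusted p = 0.0678). TNFα against DMSO gave 0.41 ± 0.16 (edgeR adjusted p = 0.0737). That change passed in DESeq2 (0.42, adjusted p = 0.0469), in limma with quality weights (0.45, adjusted p = 0.0141) and with the TNFα and DMSO libraries alone in edgeR (0.41, adjusted p = 0.0213). It did not pass with replicates as a block (0.40 ± 0.15, edgeR adjusted p = 0.0558). With single libraries left out, the edgeR adjusted p rose to at most 0.214.

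The coding sequences of Csf2rb and Csf2rb2, of 2688 and 2634 bases, were identical at 95.2% of 2628 aligned positions. Of all 50-base windows in their annotated transcripts, 12.3% of those of Csf2rb and 18.4% of those of Csf2rb2 also occur in the other gene. Reads confined to such windows map to both genes and are not in these counts of uniquely mapped reads. Both levels are therefore less certain than those of members without shared windows. Csf3r also has shared windows (10.5%), in its case with genes other than the members. Summed as 1 gene, the pair rose with TNFα (0.85 ± 0.14 against DMSO, edgeR adjusted p = 0.000267) and was higher with TMP195 (0.61 ± 0.14 against TNFα, edgeR adjusted p = 0.0166). With TPCA-1 the sum fell by 0.77 on the log2 scale (edgeR adjusted p = 0.00117).

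The share of Csf2rb2 in the counts of both genes, a measure chosen after the values were seen, also moved. It was 43.2%, 48.0%, 43.8% and 43.5% in TMP195+TNFα, 40.6%, 44.5%, 42.0% and 39.9% in TPCA-1+TNFα, 37.0%, 40.2%, 35.4% and 32.3% in TNFα, and 48.0%, 54.5%, 47.8% and 47.0% in DMSO. The TNFα libraries were below all DMSO and all TMP195+TNFα libraries. The mean share was 36.2% ± 3.28 in TNFα and 49.3% ± 3.46 in DMSO, a difference of -13.1 percentage points (SD, n = 4 each; exact 2-sided permutation p = 0.0286, the smallest that 4 against 4 allows). It was 44.6% ± 2.26 in TMP195+TNFα, 8.37 percentage points above TNFα (exact 2-sided permutation p = 0.0286). TPCA-1+TNFα averaged 41.8% ± 2.03, 5.54 percentage points above TNFα with overlap (exact 2-sided permutation p = 0.0571). Of the 4 comparisons of this share, the direct one of TMP195+TNFα with TPCA-1+TNFα gave 2.84 percentage points (exact 2-sided permutation p = 0.114), and none of these p-values is adjusted. The permutations shuffled the libraries as if unpaired, although replicate numbers pair TNFα with DMSO and with TMP195+TNFα. These p-values therefore do not allow for the pairs.

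**Figure D4:**
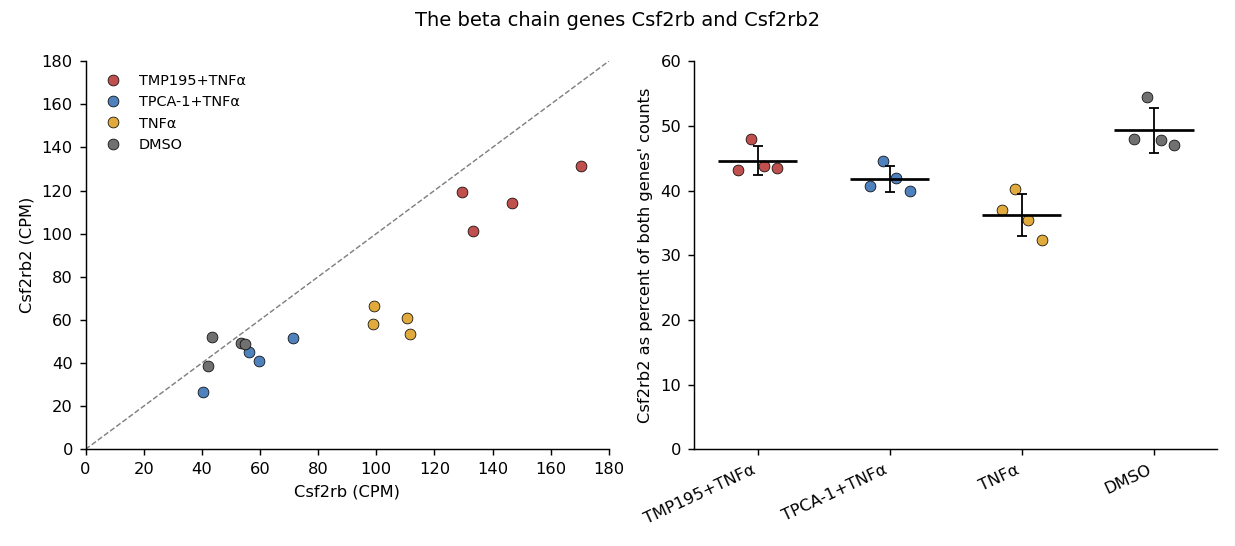
Left, CPM of Csf2rb2 against CPM of Csf2rb in the 16 libraries, with a dashed line of equal values; right, Csf2rb2 as a percent of both genes' counts per library, with the mean and SD of 4 libraries. TNFα libraries had the lowest shares (mean 36.2%) and DMSO libraries the highest (mean 49.3%).

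Csf3r (ENSMUSG00000028859, chromosome 4, 126024550 to 126044440), the G-CSF receptor gene, was lower with TPCA-1. It had 76.1, 48.7, 63.2 and 88.3 CPM in TMP195+TNFα, 27.9, 36.7, 37.3 and 37.8 CPM in TPCA-1+TNFα, 76.9, 55.7, 69.8 and 111 CPM in TNFα, and 58.7, 38.2, 43.7 and 78.6 CPM in DMSO. All TPCA-1+TNFα libraries were below every library of the other 3 groups, which overlapped one another. TPCA-1+TNFα averaged 34.9 ± 4.70 CPM against 78.3 ± 23.4 CPM in TNFα (SD, n = 4 each), a change of -1.19 ± 0.24 (edgeR adjusted p = 0.00207). TNFα against DMSO gave 0.58 ± 0.24 (edgeR adjusted p = 0.0879), and 0.59 ± 0.15 (edgeR adjusted p = 0.00672) with replicates as a block, and the TNFα library was above the DMSO library of the same number in 4 of 4 cases. TMP195+TNFα stood at -0.23 ± 0.23 against TNFα (edgeR adjusted p = 0.702) and was lower in 4 of 4 same-number pairs. Of the 50-base windows of Csf3r transcripts 10.5% also occur in transcripts of other genes.

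Because neutrophils carry the G-CSF receptor, their markers were read beside Csf3r. The 10 neutrophil markers summed to 24.8 to 48.0 CPM in TMP195+TNFα, 13.8 to 41.4 CPM in TPCA-1+TNFα, 46.6 to 85.0 CPM in TNFα and 0.958 to 2.34 CPM in DMSO. S100a8, which macrophages also make, was the only 1 above 1 CPM in any group, and the defining genes Ly6g, Elane and Ngp were at 0 in all 16 libraries. Mast cells and basophils, which carry the IL-3 receptor, had marker sums of at most 0.381 CPM in any library.

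Compared directly, TMP195+TNFα stood above TPCA-1+TNFα in 5 of the 6 genes, all but Csf2ra, where 13.1% of all tested genes were higher and 25.7% differed. The agents have different targets and were given at different doses, so these values compare the groups as treated. The differences were 2.87 ± 0.29 for Csf1 (edgeR adjusted p = 1.79e-06), 1.47 ± 0.16 for Csf2rb2 (edgeR adjusted p = 4.19e-06), 1.34 ± 0.20 for Csf1r (edgeR adjusted p = 0.000113), 1.31 ± 0.15 for Csf2rb (edgeR adjusted p = 7.87e-06) and 0.95 ± 0.24 for Csf3r (edgeR adjusted p = 0.00709). None of these 5 genes overlapped between the 2 groups, as for 23.2% of all tested genes. Csf2ra gave 0.20 ± 0.22 (edgeR adjusted p = 0.526). Csf3 had 24 reads in TMP195+TNFα and 3 in TPCA-1+TNFα.

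Set against DMSO, TMP195+TNFα was higher in 4 of the 6 genes, where 27.5% of all tested genes changed. These were Csf1, Csf1r, Csf2rb (1.59 ± 0.15, edgeR adjusted p = 6.27e-07) and Csf2rb2 (1.32 ± 0.16, edgeR adjusted p = 7.1e-06), and all but Csf1 did so without overlap, as for 30.0% of all genes. Csf2ra (0.36 ± 0.22, edgeR adjusted p = 0.249) and Csf3r (0.35 ± 0.24, edgeR adjusted p = 0.314) did not pass. TPCA-1+TNFα differed from DMSO in 1 of 6, Csf1, where 30.3% of all tested genes changed. The others stood at 0.28 ± 0.15 for Csf2rb (edgeR adjusted p = 0.169, or 0.0273 without TPCA-1+TNFα 4), -0.15 ± 0.16 for Csf2rb2 (edgeR adjusted p = 0.499), 0.16 ± 0.22 for Csf2ra (edgeR adjusted p = 0.6) and -0.60 ± 0.24 for Csf3r (edgeR adjusted p = 0.0652). All TPCA-1+TNFα libraries were below all DMSO libraries in Csf3r, as for 26.0% of all tested genes without overlap, and that gene was called by DESeq2 (-0.60, adjusted p = 0.0447) and without the filter (-0.63, edgeR adjusted p = 0.018).

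Genes that work with these ligands and receptors were taken from fixed lists, and for each list up to 3 called genes per comparison are named. The IL-3 receptor alpha chain gene Il3ra, the only 1 of 5 partner ligands and chains with enough reads, passed in none of the 3 main comparisons by edgeR, with 0 calls also in DESeq2 and in limma and 0 at p under 0.05 before adjustment. It stood at -0.18 ± 0.33 with TNFα against DMSO, 0.30 ± 0.33 with TMP195 and 0.35 ± 0.34 with TPCA-1 against TNFα. Il34, the other ligand of the CSF1 receptor, and Il3, Il5 and Il5ra did not pass the filter.

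After TNFα, 3 of 23 CSF1R signalling genes rose and 2 fell, a share close to the 23.4% of all genes. Among them were the endocytic adaptor Dab2 (-2.96 ± 0.20, 165 ± 15.7 CPM in TNFα against 1349 ± 173 CPM in DMSO), the docking protein gene Gab3 (-0.88 ± 0.14) and the kinase Src (1.32 ± 0.26). Of 13 JAK-STAT genes 5 rose and 2 fell, with the feedback inhibitors Socs3 (2.93 ± 0.38) and Socs1 (1.88 ± 0.27) and the kinase Pim1 (0.98 ± 0.13) higher. Of 15 transcription factors of CSF receptor genes 3 rose and 3 fell, including the macrophage factor Tfec (1.40 ± 0.17) and the ETS factor Fli1 (-0.64 ± 0.09). Spi1, which encodes PU.1 and was named after its values were seen, stood at 0.10 ± 0.11 (edgeR adjusted p = 0.588). Spi1 was at -0.38 ± 0.11 with TMP195 (edgeR adjusted p = 0.0581) and 0.14 ± 0.11 with TPCA-1 (edgeR adjusted p = 0.413) against TNFα, and lower in TMP195+TNFα than in TPCA-1+TNFα (-0.52 ± 0.11, edgeR adjusted p = 0.00283).

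The counts of the next 4 lists stand beside 23.4% of all genes changed by TNFα, and the share of the AU-rich list, 3 of 10, is near it. Of 8 genes linked to CSF1, 2 rose and 2 fell after TNFα. Cyclin D1, encoded by Ccnd1, was at 30.6 ± 7.19 CPM in TNFα against 210.5 ± 56.1 CPM in DMSO (-2.71 ± 0.23), the protease urokinase Plau fell (-1.77 ± 0.21) and Fosl1 rose (1.88 ± 0.35). Of 6 tested genes linked to GM-CSF, Pim1 and Inhba (1.41 ± 0.48, edgeR adjusted p = 0.0434) rose and the nuclear receptor Pparg fell (-1.28 ± 0.13). Of 10 genes that control AU-rich mRNAs, a class to which Csf2 mRNA belongs, the decay factors Zfp36l1 (-2.55 ± 0.20) and Zfp36l2 (-0.71 ± 0.10) fell and the RNase gene Zc3h12a rose (0.41 ± 0.14, edgeR adjusted p = 0.0469). Of 4 receptor-shedding genes the protease Adam17, known to cleave the CSF1 receptor (0.70 ± 0.10), and its cofactor Rhbdf2 (0.75 ± 0.23, edgeR adjusted p = 0.0269) rose. Other adjusted p values of the genes named for TNFα ran from 2.26e-08 to 0.00093. The calls of Inhba, Zc3h12a and Rhbdf2 ended on leaving out some single libraries (highest adjusted p = 0.129, without TNFα 1, for Inhba, 0.152, without DMSO 3, for Zc3h12a and 0.0984, without TNFα 4, for Rhbdf2).

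With TMP195, 6 of 23 CSF1R signalling genes were lower than with TNFα alone, where 5.95% of all genes changed. They included the adaptor Sla (-1.04 ± 0.14), the SRC-family kinase Lyn (-0.75 ± 0.13) and Gab3 (-0.86 ± 0.15). With the replicate block 9 were lower and 1 higher. Of 15 transcription factors 4 were lower, with Cebpd (-1.0 ± 0.17), Ets2 (-0.67 ± 0.15) and Maf (-0.71 ± 0.17) named by the rule, and the call of Maf ended without TNFα 1 (adjusted p = 0.0548). Socs1 was the only called JAK-STAT gene (-1.01 ± 0.25, edgeR adjusted p = 0.0244), a call that ended without TNFα 4 (adjusted p = 0.0959) or TMP195+TNFα 1, 2 or 3, and 3 were lower with the block. Fabp4, the fatty acid-binding protein gene of the list linked to GM-CSF, was higher (1.23 ± 0.26, 60.2 ± 17.4 CPM in TMP195+TNFα against 24.7 ± 6.42 CPM in TNFα), and 3 of that list were higher with the block. Ets2 was the only called gene of the CSF1 list, where the block gave 1 higher and 2 lower. No gene of the AU-rich list was called by edgeR (0 in DESeq2, 0 in limma, 1 at p under 0.05 before adjustment and 1 lower with the block), and none of the shedding list (0 by each of these). Other adjusted p values of the genes named for TMP195 ran from 0.000458 to 0.0157.

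With TPCA-1, 5 of 23 CSF1R signalling genes were lower and 3 higher than with TNFα alone, where 9.72% of all genes were lower and 9.67% higher. The ubiquitin ligase Cbl (-0.70 ± 0.12), which turns over the CSF1 receptor, the lipid kinase subunit Pik3cg (-0.68 ± 0.14) and Sos1 (-0.68 ± 0.15) were lower. All 5 called JAK-STAT genes of 13 were lower, among them Socs3 (-2.71 ± 0.38) and Jak2 (-0.88 ± 0.13), the kinase bound by the beta chain and the G-CSF receptor. Of 15 transcription factors 5 were lower, with Cebpd (-1.32 ± 0.17) and Mitf (-0.86 ± 0.11), and 3 higher. Of the genes linked to CSF1, Fos (0.75 ± 0.16) and Ccnd1 (0.81 ± 0.22) were higher and Plau lower (-0.65 ± 0.21, edgeR adjusted p = 0.0401). Of those linked to GM-CSF, Pparg was higher (1.22 ± 0.13) and Pim1 (-0.70 ± 0.13) and Fabp4 (-1.11 ± 0.27) lower. Zfp36l1 was higher (1.16 ± 0.20) and Adam17 lower (-0.58 ± 0.10). The remaining adjusted p values ran from 5.29e-06 to 0.0142. The call of Ccnd1 ended without TPCA-1+TNFα 3 (adjusted p = 0.0591), and that of Plau in 6 settings, among them without TPCA-1+TNFα 2 (highest adjusted p = 0.127, without TPCA-1+TNFα 4).

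The 3 tested protein-coding genes whose log2(CPM + 0.5) followed a member most closely over the 16 libraries are given for 6 members as a description, since the libraries share groups and replicate numbers. For Csf1 they were Atp10a, Irf2bpl and Il18bp (Pearson r = 0.942, 0.938 and 0.929). For Csf1r they were Nlrp3, Akap13 and Agrn (r = 0.948, 0.943 and 0.942). For Csf2rb they were Pgrmc1, H2-M2 and Mcoln2 (r = 0.969, 0.968 and 0.958), and for Csf2rb2 Atf1, Sema4d and Bri3bp (r = 0.971, 0.949 and 0.934). For Csf2ra they were Myadm, 1110008P14Rik and Tnfaip1 (r = 0.915, 0.901 and 0.892), and for Csf3 Fpr1, Hp and Slc7a2 (r = 0.925, 0.914 and 0.91). The Csf3 values support nothing, since Csf3 passed the filter only through TNFα and had 0 reads in the DMSO group. By Spearman correlation at most 1 of the 3 genes was the same for any member. Among the members other than Csf3, the pairs with the highest Pearson r were Csf1r and Csf2rb (r = 0.891) and Csf2rb and Csf2rb2 (r = 0.884). The pair of Csf1 and Csf2ra had the lowest (r = 0.237).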

How the data were processed

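Total RNA of 16 libraries was sequenced, and the authors deposited, per library, whole-number read counts per gene in the layout that STAR writes. STAR 2.6.1d and the builds mm10 and GRCm38 are named in the submitters' processing notes; the annotation release is not given in the sources used here. The deposited counts are of uniquely mapped reads without normalization, as their layout shows. The column of reads on the opposite strand was used, since it held at least 5 times the other strand's total in every library; reads on the gene's own strand made up 3.19% to 3.72%. Lines for unmapped, multimapped, unassigned (1.69% to 4.22% of reads) and ambiguous reads were left out of the totals. Of 54838 gene identifiers 54809 matched GENCODE M21.

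Differential expression was computed with edgeR 4.0.16 in R 4.3.3 (TMM, filterByExpr, quasi-likelihood F test, 2-sided, 1 model of all 16 libraries), which kept 12612 genes, and tested on simulated data. Alternatives were DESeq2 1.42.0, limma 3.58.1 with quality weights, RLE size factors, no filter, unstranded counts, the 2 groups alone, a replicate block and each library left out. CPM values use all counted reads. The labels name no separate animals or cultures, so p-values reflect only library-to-library spread, which may be technical. Floors (3 counts) and the exact intervals of the Csf3 ratios cover counting error only. The intervals of the log2 changes come from the edgeR fit and include library-to-library spread.

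The members and lists were chosen with earlier results of these data known. Named genes were the 8 members, up to 3 called genes per list and comparison, the top marker per list, and the 3 genes most like each member. Some genes that this rule names are not reported here. As a check of pairing, deviations from the group means of same-number libraries correlated at 0.36 to 0.77 between TNFα and DMSO, 0.44 to 0.76 between TMP195+TNFα and TNFα and 0.29 to 0.72 between TMP195+TNFα and DMSO, all above 0.1, so the numbers pair these groups. With TPCA-1+TNFα the values, against TMP195+TNFα, TNFα and DMSO, were 0.57, 0.60 and 0.42 for number 1. They were -0.063, -0.11 and -0.032 for number 2, and 0.30, 0.26 and 0.094 for number 3. Number 4 gave 0.078, 0.15 and 0.13. For number 2, and for TMP195+TNFα 4 with TPCA-1+TNFα, a library of another number correlated more (up to 0.37 and 0.44).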

Additional observations from a re-analysis of the deposited data

Results flagged for a closer look

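In 29 groups of 4 libraries with at least 1 read of a member, 5 held a library set apart from the other 3 by Dixon's test; chance flags about 5% of groups. Csf2ra had 147 CPM in DMSO 4, against 93.5 to 98.8 CPM in the other DMSO libraries. Csf3r had 27.9 CPM in TPCA-1+TNFα 1, against 36.7 to 37.8 CPM in the other libraries of that group. The other 3 rest on 1 to 3 reads each, with the rest of the group at 0: Csf2 at 0.0485 CPM in TMP195+TNFα 2 and 0.0979 CPM in TPCA-1+TNFα 3, and Csf3 at 0.147 CPM in TPCA-1+TNFα 3. Where the rest of a group is at 0, any read is flagged, so the 5% does not apply to these 3.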

How the results depend on the processing

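RLE size factors and unstranded counts changed no call of a member. Csf2rb2 in TNFα against DMSO (0.41, not called) was called with the 2 groups alone (0.41), in DESeq2 (0.42) and in limma (0.45), and without TPCA-1+TNFα 4. With the replicate block it was not called (0.40). Leaving out single libraries gave 0.32 to 0.47. Csf3r in TNFα against DMSO was called without the filter (0.59), with the replicate block (0.59), in limma (0.54) and without TNFα 2 or DMSO 4, with a range of 0.38 to 0.81. In TMP195+TNFα against TNFα, the fitted Csf3 change was -1.43 with the block and -1.42 in limma, which support nothing, since Csf3 passed the filter only through TNFα. In the same comparison Csf2rb was called with the 2 groups alone (0.40), in limma (0.39) and when summed with Csf2rb2 (0.61, chosen after seeing the data). Csf2rb2 in TPCA-1+TNFα against TNFα lost its call with the 2 groups alone (-0.56) and without TNFα 2 (range -0.70 to -0.40). The sign of 2 uncalled genes turned. Csf2ra ranged from -0.050 (without TMP195+TNFα 4) to 0.25 in TMP195+TNFα against TNFα, from -0.27 to 0.042 in TPCA-1+TNFα against TNFα (0.034 without TPCA-1+TNFα 4, 0.042 without TNFα 4) and from -0.043 (without TPCA-1+TNFα 3) to 0.34 in TPCA-1+TNFα against DMSO. Csf2rb2 in TPCA-1+TNFα against DMSO ranged from -0.29 to 0.010 (without TPCA-1+TNFα 4). The cause of these changes was not tested.

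All genes called in TMP195+TNFα against TNFα numbered 750, against 1699 with the block, 1209 in DESeq2, 1778 in limma and 446 (without TMP195+TNFα 3) to 1041 (without TPCA-1+TNFα 2) with a library left out. In TPCA-1+TNFα against TNFα they numbered 2446, against 3835 with the block and 1551 with the 2 groups alone. Only some numbers of TPCA-1+TNFα libraries paired with the other groups, number 1 clearly and number 2 not. With the block Csf3r was also called in TPCA-1+TNFα against DMSO (-0.55). Csf3 in TPCA-1+TNFα against DMSO without TPCA-1+TNFα 3 gave no value, since all counts are 0. Csf2, and Csf3 outside TNFα, are limited by depth.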

Other observations

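Csf1r, Csf2ra and Csf2rb were highest in the library numbered 4 in each of TMP195+TNFα, TNFα and DMSO, at 1430.3, 1047 and 709.6 CPM for Csf1r, 192, 151 and 147 CPM for Csf2ra and 170.4, 112 and 55.0 CPM for Csf2rb. In TPCA-1+TNFα the library numbered 4 was instead the lowest for these genes, at 306, 92.4 and 40.3 CPM, and TPCA-1+TNFα 3 was the highest, at 630.4, 164 and 71.4 CPM. Csf3r did not share this reversal. It was highest in the library numbered 4 in TMP195+TNFα (88.3 CPM), TNFα (111 CPM) and DMSO (78.6 CPM), and also in TPCA-1+TNFα (37.8 CPM). What the replicate numbers mark was not tested beyond the correlations given for the pairing.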
